A study of Mus musculus with 12 samples.

Results

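Genes of hepcidin signalling and iron handling were followed in the livers of male C57Bl/6J mice that differed in the diet of their mothers. They were a fixed list of 10 names (Bmp6, Hfe, Tfr2, Hamp, Hamp2, Slc40a1, Trf, Tfrc, Fth1 and Ftl1), and all were found among the 52636 genes of the count tables and passed the filter on low counts. VDD-F1 mice were offspring of mothers fed a vitamin D deficient diet before mating and through pregnancy, with calcium gluconate as a supplement. VDS-F1 mice were offspring of mothers fed a vitamin D sufficient diet over the same time. All mothers received the sufficient diet after delivery, all offspring received it after weaning, and the livers were taken at 16 weeks of age. Each group held 6 mice with 1 library per mouse, RNA came from the left lateral lobe, and the litters of the mice are not given in the sources used here. Liver weights were recorded by the study for VDS3 to VDS6 and for VDD4 to VDD6 (7 mice) but not for the other 5, and values are also given for these 2 sets of mice.

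The liver controls the iron content of the body through hepcidin, a peptide hormone that hepatocytes make and secrete. Hepcidin binds the iron exporter ferroportin (Slc40a1) on gut cells, macrophages and hepatocytes and has it degraded, so that less iron enters the blood. Hepatocytes transcribe hepcidin in response to BMP6 from sinusoidal endothelial cells, which acts through receptors and SMAD proteins, and in response to interleukin 6, which acts through STAT3. HFE and transferrin receptor 2 (Tfr2) sense iron-loaded transferrin and strengthen the BMP signal. Mice carry 2 hepcidin genes, Hamp (also called hepcidin 1) and Hamp2, of which Hamp is the iron-regulating one.

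Both hepcidin genes lie on the minus strand of chromosome 7 in GRCm38, Hamp at 30942368 to 30944032 and Hamp2 at 30922372 to 30924681. Their promoters are shown because these neighbouring copies differed in level and in pattern over the mice. The stretches run from base 120 to base 11 before the RefSeq start of each gene (GRCm38.p6, minus strand, chr7:30944040-30944149 for Hamp and chr7:30924192-30924301 for Hamp2). The Hamp2 stretch lies inside the Hamp2 span given above, since that GENCODE span begins upstream of the RefSeq start. Capitals mark a BMP-responsive core (GGCGCC) and a STAT-type palindrome (TTCNNNGAA).

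Hamp promoter: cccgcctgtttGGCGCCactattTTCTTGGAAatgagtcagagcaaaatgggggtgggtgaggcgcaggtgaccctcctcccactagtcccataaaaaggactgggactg

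Hamp2 promoter: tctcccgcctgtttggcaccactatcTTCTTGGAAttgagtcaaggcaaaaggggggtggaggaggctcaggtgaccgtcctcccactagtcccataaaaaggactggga

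Over 107 aligned bases, 97 (90.7%) were identical and 10 differed. One difference, G15A, lay inside the BMP-responsive core of Hamp, where positions count from 1 at the 5′ end of the Hamp stretch, the first letter is the base of Hamp and the last that of Hamp2. The STAT-type palindrome was present in both. Both motifs read the same on either strand and do not overlap in Hamp. Of 32817 RefSeq windows of 300 bases around gene starts, 11.9% held GGCGCC and 8.29% held TTCNNNGAA. Promoter windows were searched for 8 of the 10 genes (RefSeq, GRCm38.p6), all but Trf and Slc40a1. Apart from Hamp, GGCGCC occurred in 1 window of Tfrc, and TTCNNNGAA occurred in the windows of none of these 8 besides Hamp and Hamp2.

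Iron also acts on the messenger RNAs of this system through iron-responsive elements, short hairpins with a CAGTGN loop that iron regulatory proteins bind when iron is scarce. Binding in front of a coding sequence holds back translation, and binding behind it protects the messenger RNA from decay. A search of GENCODE M21 transcripts for a C, 5 bases, the loop and 5 bases that pair with the first 5 (G-T pairs allowed) found the element in 4 of the 10 genes and in 222 of 21901 genes with a protein-coding transcript (1.01%). The elements are shown with the loop in capitals, since they separate the genes whose messenger RNA level iron acts on from those whose translation it acts on. Fth1, Ftl1 and Slc40a1 each carried 1 element in the 5′ UTR, on chromosome 19 (plus strand, chr19:9982733-9982759), chromosome 7 (minus strand, chr7:45459780-45459806) and chromosome 1 (minus strand, chr1:45925466-45925492). Tfrc carried 4 in the 3′ UTR (chromosome 16, plus strand, all GRCm38), the first at chr16:32631220-32631246 and the last at chr16:32631711-32631737.

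Fth1: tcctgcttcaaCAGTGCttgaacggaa

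Ftl1: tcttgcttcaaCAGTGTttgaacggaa

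Slc40a1: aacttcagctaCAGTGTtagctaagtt

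Tfrc, first: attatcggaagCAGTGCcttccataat

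Tfrc, last: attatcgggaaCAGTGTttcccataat

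RNA-seq counts fragments per gene, and levels are given as CPM, counts scaled to the library size with the TMM method of edgeR. Each library held 25897868 to 36403413 fragments, of which 14275793 to 20815066 were counted on genes. The quasi-likelihood test of edgeR was applied to 12453 genes that averaged 12 or more counts, p-values were adjusted over all of them after Benjamini and Hochberg, and a gene was called at an adjusted p-value under 0.05. Fold changes are VDD-F1 over VDS-F1 and carry a standard error (SE). VDS6 stood apart in its share of fragments outside annotated genes (11.1%). VDD2 was the highest mouse for 24 of 49 cell type markers, with summed levels of 115 CPM for cholangiocytes (23.9 to 71.7 in the other 11 mice) and 496 CPM for stellate cells (276 to 384 in the others). Leaving out both gave calls in 0 of the 10 genes for the maternal diets, against 0.0565% of all genes, and the part of the marker levels in the results was not tested. In a bulk sample fewer cells of a type and less RNA per cell cannot be told apart. All 8 hepatocyte markers were detected, and they summed to 100723 to 117542 CPM in VDD-F1 and to 86924 to 107494 CPM in VDS-F1 livers.

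Between the maternal diets, Slc40a1, Ftl1 and Trf had the higher mean and Tfr2 the lower mean in VDD-F1 livers, each at an unadjusted p-value under 0.05, and no gene of the 10 was called. Hamp had a VDD-F1 mean 1.77-fold that of VDS-F1 with a wide spread in both groups. Across all genes, 5 of 12453 (0.0402%) were called and 15.8% had an unadjusted p-value under 0.05, against 0 and 4 of the 10 genes. DESeq2, the test named in the study's methods, called Slc40a1 among 4.05% of all genes, by adjusted p-value alone. The study also asked for an absolute log2-fold change above 1, and Slc40a1 had 0.45 by DESeq2. The plot of each gene by mouse shows the spread behind these values.

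**Figure D1:**
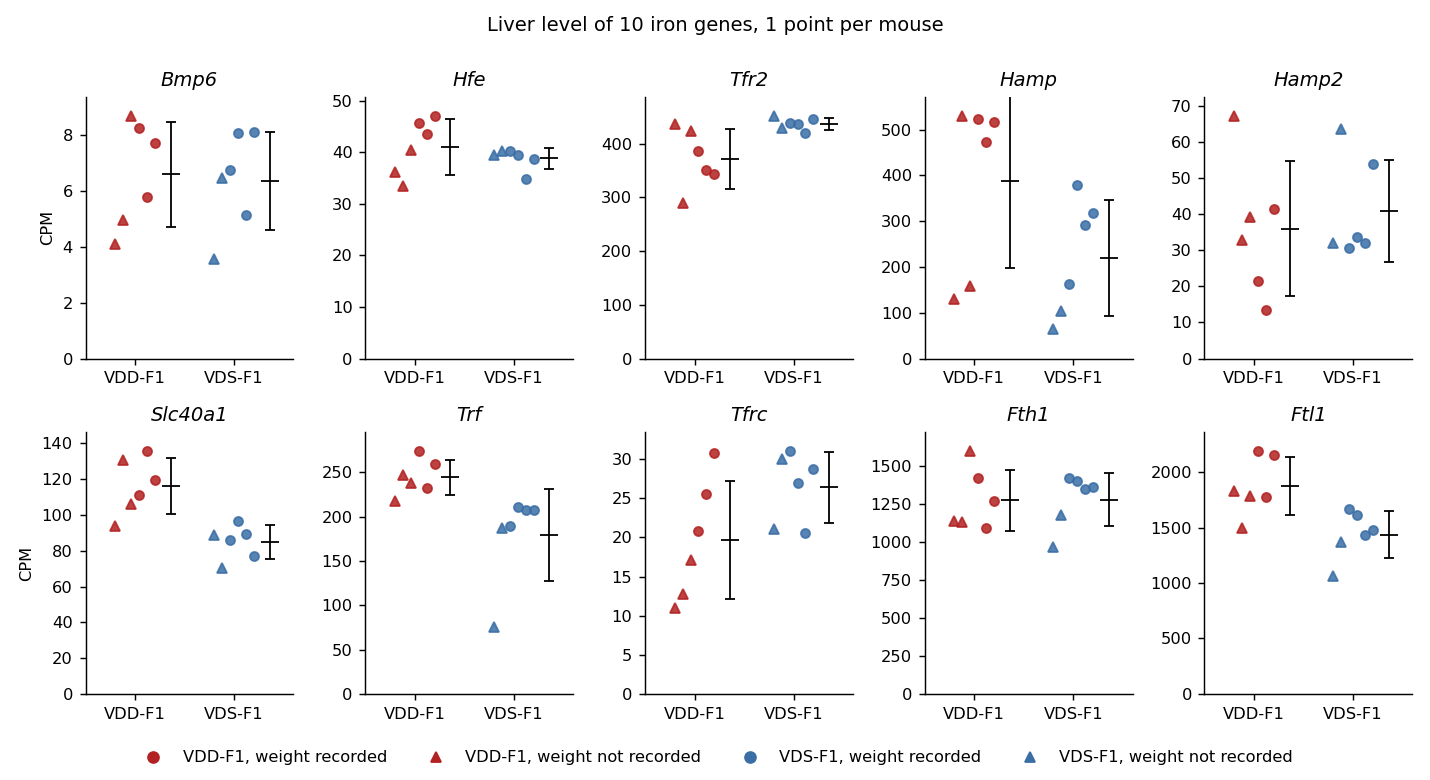
Level of the 10 genes in CPM on linear axes, 1 point per mouse (red VDD-F1, blue VDS-F1, circles for mice with and triangles for mice without a recorded liver weight), with the mean and SD of 6 mice in black. Trf is the gene whose groups do not overlap, and Hamp falls into high and low mice within VDD-F1.

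Per kilobase of exon, a scale on which genes can be set side by side, the order of mean levels over the 12 mice was Ftl1 (1235 CPM per kilobase), Hamp (742), Fth1 (368), Tfr2 (93.2), Hamp2 (66.0), Trf (63.9), Hfe (11.2), Slc40a1 (11.1), Tfrc (3.72) and Bmp6 (1.65). Breaks with no overlap between any mice lay between Fth1 and Tfr2, between Trf and Hfe, and between Slc40a1 and Tfrc. Ftl1 and Hamp overlapped in range although Ftl1 was higher in 11 of 12 mice, and Hamp exceeded Fth1 in 7 of 12. Hfe exceeded Slc40a1 in 6 of 12 mice and Hamp2 exceeded Trf in 4 of 12, so these neighbours did not differ beyond their spread. Tfrc and Bmp6 overlapped in range, with Tfrc the higher in 12 of 12 mice. The level of Trf is a lower estimate, since 63.5% of its exon bases also belong to Gm20425 on the same strand, and fragments that 2 genes share are not counted.

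Hamp, the hepcidin that lowers plasma iron, varied more between mice than the other 9 genes. Its coefficient of variation over the 12 mice was 58.5%, above that of 92.6% of all genes tested. In VDD-F1 livers it ranged from 130.2 CPM in VDD1 to 529.9 CPM in VDD2, with a median of 495 CPM. In VDS-F1 livers it ranged from 63.5 CPM in VDS1 to 378 CPM in VDS4, with a median of 228 CPM. VDD2, VDD4, VDD5 and VDD6, at 473 to 529.9 CPM, lay above every VDS-F1 mouse, while VDD1 and VDD3 lay among them. The means were 389 ± 191 and 219.8 ± 127 CPM (SD, n = 6 each). The log2-fold change was 0.82 (SE 0.45, unadjusted p = 0.0866, adjusted p = 0.389). With the set of mice as a covariate it was 1.17 (SE 0.34, unadjusted p = 0.00426, adjusted p = 0.113). DESeq2 gave Hamp an adjusted p of 0.426, and of 0.0403 with that covariate, a fit chosen after seeing the data that called 4.96% of all genes and 3 of the 10 (Hamp, Slc40a1 and Ftl1).

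Hamp2, a close copy that does not act on iron as Hamp does, showed another pattern over the same mice. It ranged from 13.5 CPM in VDD5 to 67.3 CPM in VDD1 among VDD-F1 mice, with a median of 36.1 CPM. Among VDS-F1 mice it ranged from 30.6 to 63.6 CPM, with a median of 32.9 CPM. The groups overlapped, with VDD4 and VDD5 below and VDD1 above all VDS-F1 mice. The log2-fold change was -0.19 (SE 0.32, adjusted p = 0.818), with -0.46 without VDD1 and -0.020 without VDD5 or without VDS2 as the ends of the range when 1 mouse was left out. The count of Hamp2 depends on strand, and an antisense gene (Gm44662, 0 to 4 counts in a library) shares 89 of its 583 exon bases. The part of this overlap in the strand dependence was not tested. Counts that ignore the strand held 26 to 126 fragments of Hamp2 in a library, against 256 to 1078 with strand, and gave a log2-fold change of 0.28.

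The share of Hamp2 in the summed counts of both hepcidin genes spread from 2.77% in VDD5 to 38.0% in VDS2. The 4 VDD-F1 mice with high Hamp had shares of 2.77% to 7.43%, and VDD1 and VDD3 had 34.1% and 20.0%. VDS-F1 shares ran from 8.17% in VDS4 to 38.0%. The mean share of VDD-F1 was 12.3% and that of VDS-F1 20.0%, a difference of -7.67 percentage points (exact permutation test over all splits of 6 against 6 mice, two-sided, p = 0.286). With single mice left out this difference ran from -12.02 (without VDD1) to -4.06 percentage points (without VDS2), and it was -4.95 without VDS1. By set of mice the means were 8.92% where a liver weight was recorded (7 mice) and 26.3% where it was not (5 mice). That difference was -17.4 percentage points (exact permutation test over all splits of 7 against 5 mice, two-sided, p = 0.0114, where the smallest possible is 0.00126). The 2 genes share most of their sequence, so fragments of one can be lost or placed on the other, and these shares are uncertain to that extent.

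**Figure D2:**
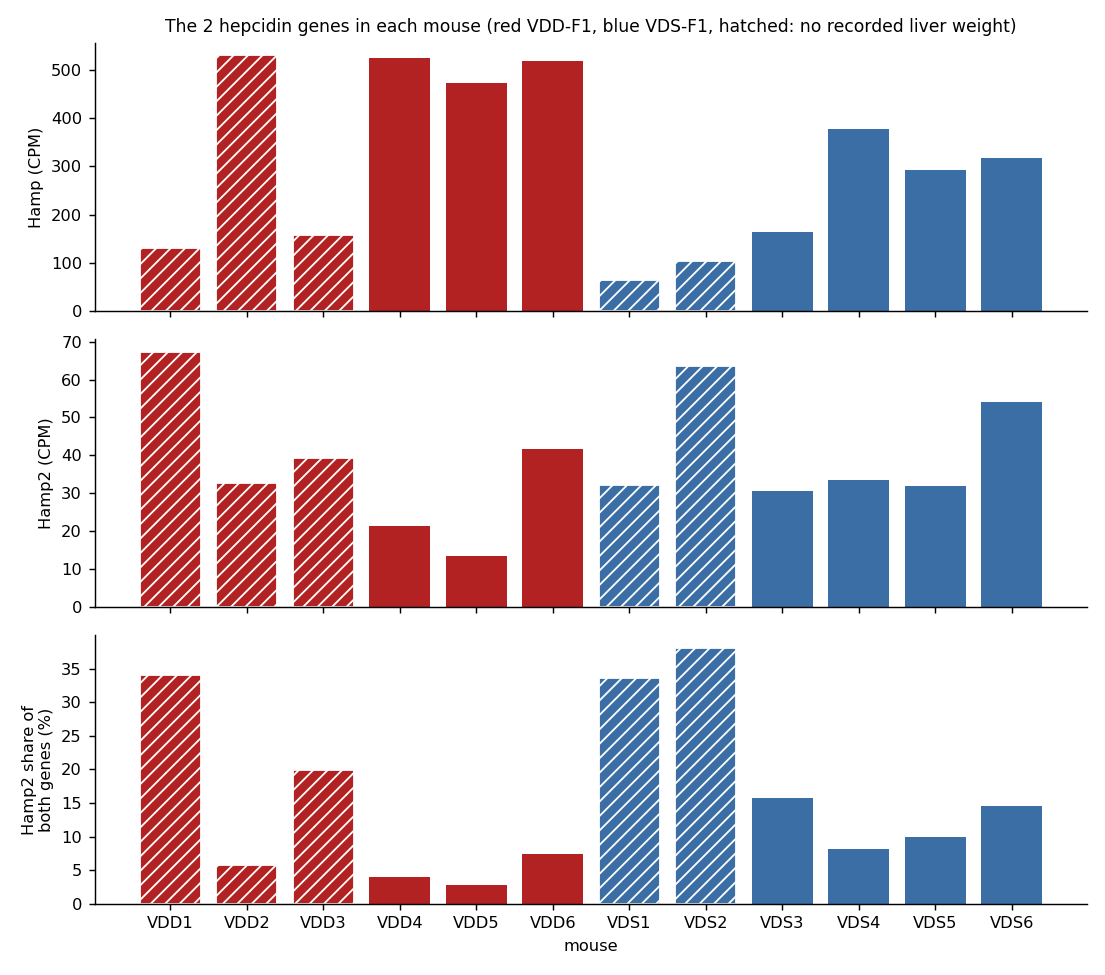
CPM of Hamp (top) and Hamp2 (middle) and the percent of Hamp2 in the counts of both (bottom) for each mouse, with VDD-F1 in red, VDS-F1 in blue and hatching for mice without a recorded liver weight. VDD2, VDD4, VDD5 and VDD6 have the highest Hamp, and VDD1, VDS1 and VDS2 have Hamp2 shares of 33.6% to 38.0%.

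Bmp6, the endothelial ligand that drives hepcidin transcription, was the lowest of the 10 genes. It is on chromosome 13 at 38345107 to 38500302 (plus strand). VDD-F1 mice ranged from 4.10 to 8.66 CPM with a median of 6.74, and VDS-F1 mice from 3.55 to 8.08 CPM with a median of 6.58. The ranges overlapped almost wholly, with a log2-fold change of 0.05 (SE 0.23, adjusted p = 0.940). It had 65 to 165 counts in a library, and its coefficient of variation over the 12 mice was 26.9%. Txndc5 on the opposite strand, with 2702 to 4503 counts in a library, shares 224 of the 3900 exon bases of Bmp6. The part of Txndc5 in the Bmp6 count was not tested. Summed CPM of 6 sinusoidal endothelial markers ran from 211 to 249 in VDD-F1 livers and from 205 to 283 in VDS-F1 livers, and the part of these cells in the Bmp6 level was not tested.

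Hfe (chromosome 13, 23702034 to 23710854, minus strand), whose loss causes iron overload, was the steadiest of the 10 genes, with a coefficient of variation of 10.2%. It ranged from 33.4 to 47.0 CPM in VDD-F1 (median 42.0) and from 34.9 to 40.3 CPM in VDS-F1 mice (median 39.5). VDD3 to VDD6 lay above and VDD2 below all VDS-F1 mice. Its log2-fold change was 0.08 (SE 0.09, adjusted p = 0.713).

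Tfr2 (chromosome 5, 137569840 to 137587481, plus strand), the sensor of iron-loaded transferrin in hepatocytes, ranged from 289 CPM in VDD2 to 437 CPM in VDD1 among VDD-F1 mice, with a median of 368. VDS-F1 mice lay close together, from 420 to 451 CPM, with a median of 437. VDD2 and VDD4 to VDD6 were below every VDS-F1 mouse, and VDD1 and VDD3 were among them. Tfr2 had a log2-fold change of -0.23 (SE 0.10, unadjusted p = 0.0337, adjusted p = 0.275). The 4 mice with low Tfr2 were the 4 with high Hamp.

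Slc40a1 encodes ferroportin, the exporter that hepcidin removes from the cell surface (chromosome 1, 45908068 to 45926523, minus strand). VDD-F1 mice ranged from 93.6 CPM in VDD1 to 135 CPM in VDD5, with a median of 115. VDS-F1 mice ranged from 70.1 CPM in VDS2 to 96.5 CPM in VDS4, with a median of 87.5. Every VDD-F1 mouse but VDD1 lay above every VDS-F1 mouse. The log2-fold change of 0.46 (SE 0.10) had the smallest unadjusted p-value of the 10 genes, 0.000569, with an adjusted p of 0.0855. DESeq2 gave an adjusted p of 0.00654 and edgeR without VDD1 one of 0.0175, with 3.37% of genes called in that fit. Over all alternatives the log2-fold change stayed between 0.40 and 0.51 and the adjusted p ran from 0.00195 to 0.9998. Kupffer cells, the resident macrophages, also make ferroportin, and their 6 markers summed to 79.8 to 231 CPM in VDD-F1 livers and 122 to 241 CPM in VDS-F1 livers. All 6 markers were tested and 2, Clec4f and Timd4, had an unadjusted p-value under 0.05 (15.8% of all genes), both lower in VDD-F1. Of the other 4, Vsig4 and Cd5l had negative log2-fold changes (-0.31 and -0.18), while Marco and Adgre1 had positive ones (0.59, unadjusted p = 0.0918, and 0.26, unadjusted p = 0.338). The part of these cells in the ferroportin level was not tested.

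Trf (chromosome 9, 103204001 to 103230444, minus strand) encodes transferrin, the plasma protein that carries iron to tissues. VDD-F1 mice ranged from 218 to 273 CPM with a median of 242. VDS-F1 mice ranged from 75.4 CPM in VDS1 to 211 CPM in VDS4 with a median of 198. The groups did not overlap, as for 1.18% of all genes, and every VDD-F1 mouse was the higher. Trf had a log2-fold change of 0.45 (SE 0.19, unadjusted p = 0.0353, adjusted p = 0.279). Without VDS1, whose level was far below those of the other 5 VDS-F1 mice (187 to 211 CPM), the log2-fold change was 0.29.

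Tfrc (chromosome 16, 32608920 to 32632794, plus strand) encodes transferrin receptor 1, which takes up iron-loaded transferrin and whose messenger RNA carries the 3′ elements shown above. VDD-F1 mice ranged from 10.98 CPM in VDD1 to 30.8 CPM in VDD6 with a median of 19.0. VDS-F1 mice ranged from 20.6 to 31.0 CPM with a median of 27.9. VDD1, VDD2 and VDD3, the 3 VDD-F1 mice without a recorded liver weight, were below all VDS-F1 mice, and VDD4 to VDD6 were among them. Tfrc had a log2-fold change of -0.42 (SE 0.22, adjusted p = 0.374).

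Fth1 and Ftl1 encode the heavy and light chains of ferritin, the protein shell that stores iron inside cells. Fth1 (chromosome 19, 9980598 to 9985098, plus strand) ranged from 1089 to 1595 CPM in VDD-F1 (median 1202) and from 965 to 1420 CPM in VDS-F1 mice (median 1353). Its log2-fold change was -0.01 (SE 0.13, adjusted p = 0.991). Ftl1 (chromosome 7, 45457944 to 45459884, minus strand) ranged from 1496 CPM in VDD2 to 2187 CPM in VDD4 among VDD-F1 mice, with a median of 1807. In VDS-F1 mice it ranged from 1066 CPM in VDS1 to 1665 CPM in VDS3, with a median of 1457. Every VDD-F1 mouse but VDD2 was above every VDS-F1 mouse. The log2-fold change of Ftl1 was 0.38 (SE 0.13, unadjusted p = 0.00967, adjusted p = 0.172). Both ferritin genes have processed copies in the genome, of which the highest count in any library was 103, against 20652 or more for Ftl1. Ftl1 also shares 355 of its 1340 exon bases with an antisense gene (Gm10252). Counts that ignore the strand held 3231 to 8083 fragments of Ftl1 in a library, against 20652 to 46264 with strand. They gave a log2-fold change of 0.43.

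Within the 7 mice with a recorded liver weight (3 VDD-F1 and 4 VDS-F1), 5 of the 10 genes were called, against 11% of all genes. Hamp, Slc40a1, Ftl1 and Trf were higher and Tfr2 was lower in VDD-F1 there. Hamp had 505 ± 28.3 CPM (SD, n = 3) in VDD-F1 and 288 ± 90.5 CPM (SD, n = 4) in VDS-F1, with a log2-fold change of 0.81 (SE 0.21, adjusted p = 0.0280). The log2-fold changes of the other called genes were 0.49 for Slc40a1 (adjusted p = 0.00938), 0.40 for Ftl1 (0.0230), 0.32 for Trf (0.0318) and -0.27 for Tfr2 (0.0466). In the 5 mice whose liver weight was not recorded, 0% of all genes were called by edgeR, and Hamp and Tfrc had unadjusted p-values under 0.05, against 3.77% of all genes. There Hamp had a log2-fold change of 1.71 (SE 0.65, unadjusted p = 0.0343) and Tfrc one of -0.90 (SE 0.25, unadjusted p = 0.00814). Over all alternatives of the diet comparison the adjusted p of Hamp ran from 0.0280 to 0.9998, that of Ftl1 from 0.00112 to 0.9998, that of Trf from 0.0318 to 0.9998 and that of Tfr2 from 0.0466 to 0.9998.

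The difference between the sets was tested as an interaction of diet and set, for which 0.0883% of all genes and 0 of the 10 were called. By DESeq2 1.11% of all genes and 0 of the 10 were called, and 9.01% of all genes had an unadjusted p-value under 0.05 by edgeR. Tfrc had the smallest unadjusted p-value of the 10 (interaction on the log2 scale 0.85, SE 0.30, unadjusted p = 0.0158, adjusted p = 0.409), followed by Hfe (0.36, SE 0.15, unadjusted p = 0.0334, adjusted p = 0.510). Hfe averaged 45.4 CPM in VDD-F1 livers and 38.3 CPM in VDS-F1 livers with a recorded weight, and 36.7 and 39.8 CPM in those without. Tfrc averaged 25.7 and 26.8 CPM in mice with a recorded weight, and 13.6 and 25.5 CPM in those without. The interaction of Hamp was -0.90 (SE 0.65, adjusted p = 0.760), and without VDD2 it was 0.03. The interaction of Trf was -0.51 (SE 0.34, adjusted p = 0.733) in all mice and turned on VDS1. Without VDS1 it was -0.00049 (adjusted p = 0.9999), and without VDS2 it was -1.31 (adjusted p = 0.0344), a fit that called 0.0723% of all genes and in which VDS1 was the lone VDS-F1 mouse without a recorded weight, assumed to vary like the other mice.

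**Figure D3:**
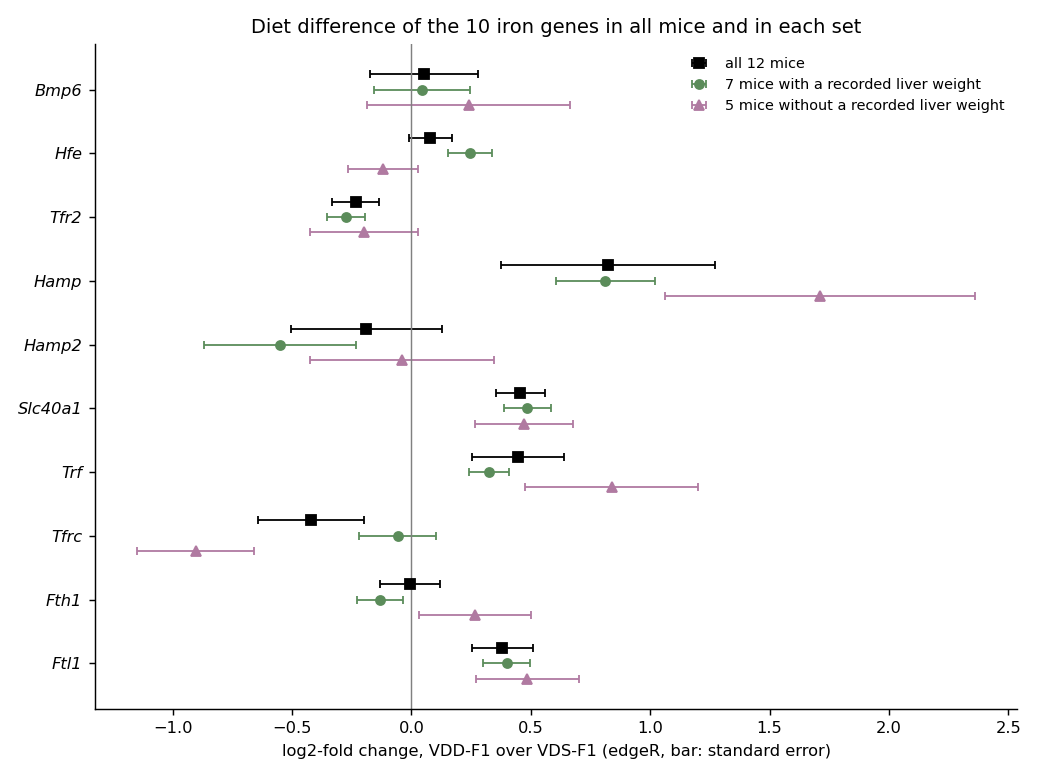
Log2-fold change (VDD-F1 over VDS-F1, edgeR) of the 10 genes with standard errors in all 12 mice (squares), in the 7 mice with (circles) and in the 5 mice without (triangles) a recorded liver weight. Slc40a1 has 0.46, 0.49 and 0.47 in the 3 fits, while Tfrc has -0.42, -0.06 and -0.90.

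The sets of mice were also compared with diet in the model. Mice with a recorded liver weight had higher mean levels of Hamp, Tfrc and Ftl1 and a lower one of Hamp2 at an unadjusted p-value under 0.05, and none of the 10 was called, while 2.46% of all genes were. By unadjusted p-value 13.9% of all genes and 4 of the 10 were under 0.05. Hamp ranged from 163 to 524 CPM in the 7 mice with a recorded weight (median 378) and from 63.5 to 529.9 CPM in the 5 without (median 130.2), where VDD2 alone was above 158 CPM. Its log2-fold change between the sets was 1.30 (SE 0.36, unadjusted p = 0.00274, adjusted p = 0.0831). Without VDD2 it was 1.80, with an adjusted p of 0.000233 in a fit that called 4.03% of all genes, and DESeq2 on all mice gave an adjusted p of 0.0204. DESeq2 also called Ftl1 (adjusted p = 0.0493), among 4.67% of all genes. Ftl1 had a log2-fold change of 0.30 (SE 0.10, adjusted p = 0.179), Tfrc one of 0.50 (SE 0.19, adjusted p = 0.219) and Hamp2 one of -0.62 (SE 0.29, adjusted p = 0.360).

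Red blood cell transcripts moved with the sets as well. Of 8 erythroid markers 7 were tested, and 4 (the globin genes Hba-a1, Hba-a2, Hbb-bs and Hbb-bt) were called lower in mice with a recorded weight, against 1.56% of all genes called in that direction. The erythroid regulator Klf1 had a log2-fold change of 0.49 (SE 0.35, unadjusted p = 0.177), the opposite sign. The summed level of the markers was 127 to 348 CPM in those mice and 444 to 1243 CPM in the others, with no overlap. Immature red cells are rich in Tfrc. In mice without a recorded weight, Tfrc averaged 13.6 CPM in VDD-F1 and 25.5 CPM in VDS-F1 livers. The summed markers were at 444 to 636 CPM in those VDD-F1 mice and at 1243 and 719 CPM in VDS1 and VDS2. The part of red cells in the levels of the 10 genes was not tested.

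Beyond the 10 genes, 86 genes in 6 lists cover the signals that set hepcidin and the uptake, storage and use of iron, and 81 of them passed the filter. Between the maternal diets none was called by edgeR, and 1 was called by DESeq2, against 4.05% of all genes. By unadjusted p-value (edgeR) 11 of 81 (13.6%) were under 0.05, 6 higher and 5 lower in VDD-F1, against 15.8% of all genes. The median log2-fold change was -0.03 over the 81 genes, 0.07 over the 10 and 0.00 over all genes.

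In the BMP and SMAD arm, 1 of 16 tested genes, Fkbp1a, had an unadjusted p-value under 0.05. Fkbp1a encodes a protein that binds BMP receptors and keeps them inactive. It had 62.9 ± 11.2 CPM in VDD-F1 and 49.0 ± 3.55 CPM in VDS-F1 livers (SD, n = 6 each), with a log2-fold change of 0.36 (SE 0.11, adjusted p = 0.150). Tmprss6, the protease that dampens hepcidin, had a log2-fold change of -0.03 (SE 0.10) and the receptor gene Bmpr2 one of -0.08 (SE 0.07). Erfe, the erythroid hormone that lowers hepcidin, had at most 3 counts in a library and was not tested.

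In the interleukin 6 and STAT3 arm, 1 of 11 tested genes had an unadjusted p-value under 0.05, the feedback inhibitor Socs3. It had 8.03 ± 5.14 CPM in VDD-F1 and 4.52 ± 0.466 CPM in VDS-F1 livers (SD, n = 6 each), with VDD1 highest at 17.5 CPM. Its log2-fold change was 0.82 (SE 0.32, adjusted p = 0.233). The receptor subunit Il6st had a log2-fold change of -0.09 (SE 0.09) and the secreted acute-phase protein gene Fgl1 one of -0.16 (SE 0.43). Il6 had 0 counts in all 12 libraries.

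Among 15 tested genes of iron and heme uptake, reduction and oxidation, 5 had an unadjusted p-value under 0.05, 3 higher and 2 lower in VDD-F1. Hpx encodes hemopexin, the plasma carrier that brings free heme to the liver. It ranged from 3078 to 5999 CPM in VDD-F1 and from 2310.0 to 3987 CPM in VDS-F1 livers, a log2-fold change of 0.59 (SE 0.18, adjusted p = 0.137), and it was the gene DESeq2 called (adjusted p = 0.0318). The iron reductase gene Steap2 had a log2-fold change of 0.43 (adjusted p = 0.138) and the copper-dependent iron oxidase gene Heph one of 0.86 (adjusted p = 0.261). Slc39a14, which takes up iron not bound to transferrin, had a log2-fold change of -0.37 (adjusted p = 0.243). The fifth was Cd163, the macrophage receptor for hemoglobin bound to haptoglobin, at -1.33 (SE 0.60, adjusted p = 0.302). It had 0.892 to 2.84 CPM in VDD2, VDD4, VDD5 and VDD6, below the 10.8 to 21.7 CPM of VDS-F1 mice, while VDD1 and VDD3 had 21.3 and 12.7 CPM, and it was named after its values were seen.

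Of 17 genes of heme synthesis, breakdown and transport, 3 had an unadjusted p-value under 0.05, all lower in VDD-F1. The synthesis enzymes Alad and Cpox had log2-fold changes of -0.31 (adjusted p = 0.133) and -0.33 (adjusted p = 0.280), and the biliverdin reductase gene Blvrb one of -0.36 (adjusted p = 0.235). Alas1, the rate-limiting enzyme of heme synthesis in liver, had -0.62 (SE 0.45), and Fech, which inserts iron into heme, 0.03 (SE 0.08). In mitochondrial iron-sulfur cluster assembly, 1 of 14 genes, the co-chaperone Hscb, had an unadjusted p-value under 0.05 (log2-fold change 0.63, adjusted p = 0.199), and the chaperone Hspa9 and the ferredoxin Fdx1 had 0.12 and -0.20.

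Iron sensing and ferritin turnover had 0 of 8 tested genes at an unadjusted p-value under 0.05. Aco1, which encodes an iron regulatory protein that binds the hairpins shown above, had a log2-fold change of -0.19 (SE 0.11). Pcbp1, which delivers iron to ferritin, had -0.13 (SE 0.10).

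**Figure D4:**
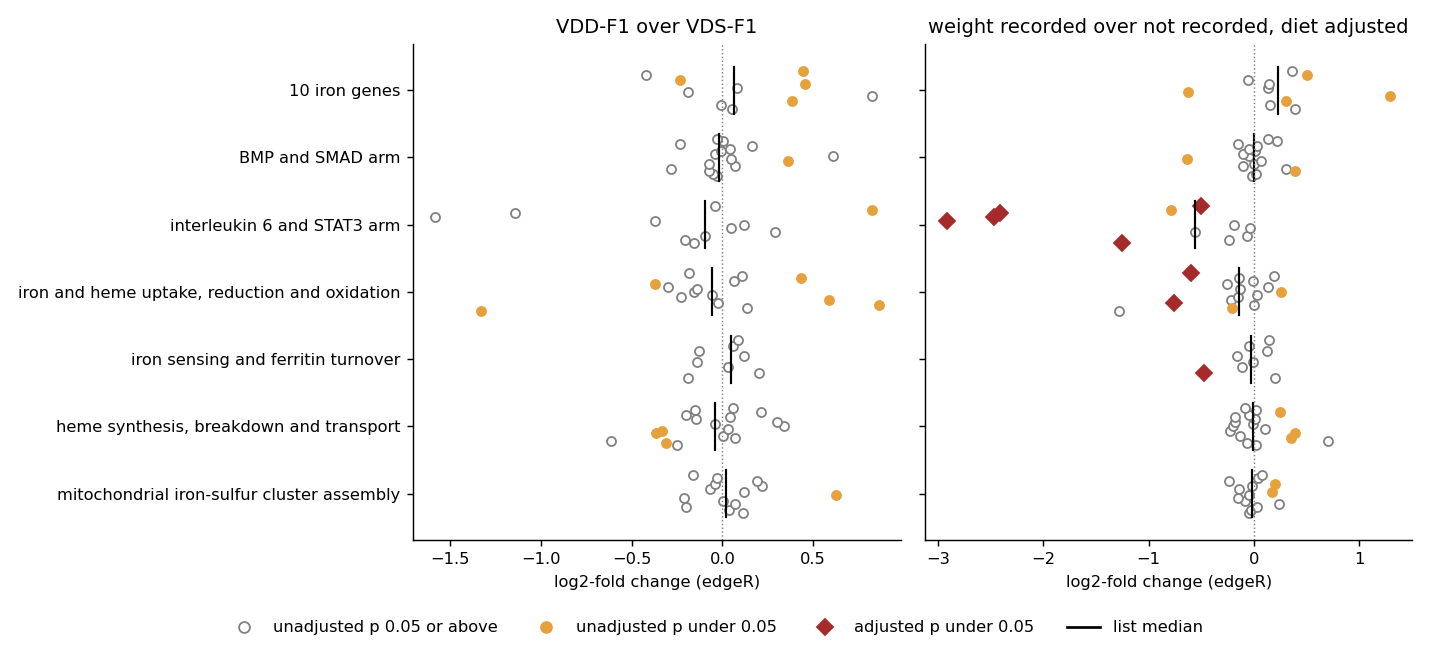
Log2-fold changes by edgeR of the 10 iron genes and of the tested genes of 6 lists, for VDD-F1 over VDS-F1 (left) and for mice with over mice without a recorded liver weight, diet adjusted (right). Points are genes, colours give the p-value class and black lines the list medians. No gene passes the adjusted threshold on the left, and 8 do on the right, all at negative values.

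Between the sets of mice, 8 of the 81 genes (9.88%) were called, all lower in mice with a recorded liver weight, against 1.56% of all genes called in that direction. The 8 were named after their values were seen. Of these, 5 belong to the interleukin 6 and STAT3 arm: the serum amyloid A genes Saa1 and Saa2, the iron-siderophore binder Lcn2, Fgl1 and the transcription factor Stat3. The others were haptoglobin (Hp), the metalloreductase gene Steap4 and Fbxl5, which marks iron regulatory protein for decay when iron is plentiful. Lcn2 had a log2-fold change of -2.92 (adjusted p = 0.00138), Hp one of -0.76 (0.00222), Saa2 one of -2.41 (0.0198) and Saa1 one of -2.47 (0.0204).

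The diet difference of the serum amyloid genes itself differed between the sets. Saa1 was at 225 CPM in VDS1 and 279 CPM in VDS2, against 26.1 to 51.8 CPM in VDD1 to VDD3. With a recorded weight, Saa1 was at 12.2 to 17.5 CPM in VDS3 to VDS6 and at 20.8 to 27.9 CPM in VDD4 to VDD6. Saa2 was at 101 and 161 CPM in VDS1 and VDS2 and at 6.19 to 32.0 CPM in the other 10 mice. The interaction was 3.30 for Saa1 and 3.22 for Saa2 on the log2 scale (edgeR, adjusted p = 0.00151 each). Both rest on VDS1 and VDS2, the 2 VDS-F1 mice without a recorded weight, and the 2 genes are paralogs that can share fragments. These 2 mice also had the lowest Hamp of the 12.

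**Figure D5:**
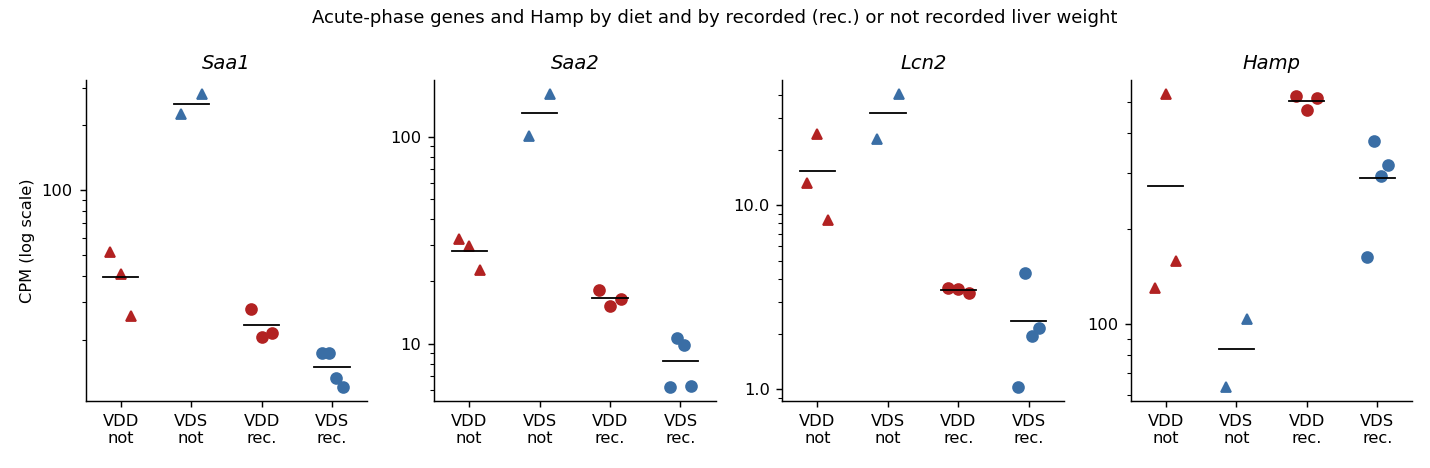
CPM on a log axis of Saa1, Saa2, Lcn2 and Hamp, 1 point per mouse with the mean as a line, by maternal diet and by recorded (rec.) or not recorded (not) liver weight. VDS1 and VDS2 have Saa1 at 225 and 279 CPM and Hamp at 63.5 and 104 CPM.

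Across the 12 mice, 6 relations of Hamp were computed on log2 CPM, with permutation p-values from 100000 resamples, and none passed adjustment over the 6. The BMP target Id1 had r = 0.63 (permutation p = 0.0270, adjusted p = 0.0809) and rho = 0.54 (permutation p = 0.0755, adjusted p = 0.453), with r = 0.52 without VDS1 and VDS2 and r = 0.63 in the 7 mice with a recorded weight. Bmp6 had r = 0.47 (permutation p = 0.123, adjusted p = 0.196) and rho = 0.30 (permutation p = 0.342, adjusted p = 0.458), with r = 0.20 without those 2 mice and 0.28 in the 7. Smad7 had r = 0.41 (permutation p = 0.188, adjusted p = 0.226) and rho = 0.28 (permutation p = 0.381, adjusted p = 0.458), with r = 0.29 without the 2 mice and 0.37 in the 7. Hamp2 had r = -0.46 (permutation p = 0.130, adjusted p = 0.196) and rho = -0.38 (permutation p = 0.227, adjusted p = 0.458), with r = -0.53 without the 2 mice and -0.29 in the 7. Saa1 had r = -0.69 (permutation p = 0.0110, adjusted p = 0.0663) and rho = -0.33 (permutation p = 0.295, adjusted p = 0.458). This relation rests on VDS1 and VDS2, since r was -0.14 without them and 0.57 in the 7 mice. Tfrc had r = 0.09 (permutation p = 0.789, adjusted p = 0.789) and rho = -0.02 (permutation p = 0.955, adjusted p = 0.955), with r = 0.29 without the 2 mice and -0.30 in the 7.

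The 5 genes with the pattern most like Hamp over the 12 mice were Gm3776 (Pearson r of log2 CPM 0.94), Nqo1 (0.94), Prrg3 (0.93), Htatip2 (0.92) and Gstm3 (0.91), given as a description over points that share their libraries. Of these, Gm3776 was at 0 CPM in VDD1, VDS1 and VDS2, and Prrg3 averaged 1.38 CPM, so their r values rest on low counts. Nqo1 encodes a quinone reductase and Gstm3 a glutathione transferase. Gstm3 was at 187 to 247 CPM in the 4 VDD-F1 mice with high Hamp, at 28.7 CPM in VDD3, at 38.8 CPM in VDD1 and at 17.7 to 88.9 CPM in VDS-F1 mice. The 5 genes most like Tfrc were Ccdc151 (0.90), Pls3 (0.88), Polr3k (0.88), Med8 (0.88) and Hsd3b2 (0.87). Ccdc151 averaged 1.18 CPM, also a low level.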

How the data were processed

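Liver RNA-seq libraries (ribosomal RNA removed, strand kept) came from 6 VDD-F1 and 6 VDS-F1 mice. After trimming, the authors mapped reads to mm10 by STAR with GENCODE M15, and the deposited values are raw counts of uniquely mapped fragments on each gene, not normalized. The reverse-strand count was used, which held 92.7% to 95.8% of stranded counts. Names and positions came from GENCODE M21 (52489 of 52636 genes matched), and all 86 list genes matched, Hjv under the symbol Hfe2.

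Counts were tested with edgeR 4.0.16 (TMM, quasi-likelihood fit in the legacy form) in R 4.3.3 on genes averaging 12 or more counts, and Benjamini-Hochberg adjustment covered all of them. The study's methods name DESeq2, which was run as an alternative (1.42.0), as was voom in limma 3.58.1. Further alternatives were a robust fit, the newer edgeR form, other scalings and filters, counts that ignore the strand, a covariate for the set of mice, fits within each set, a replicate block and each mouse left out. DESeq2 with the set as covariate, voom for the set and interaction fits, leaving out both VDD2 and VDS6 and, for relations, deviations from the diet and set means were chosen after seeing the data. Shares were compared by exact permutation tests (SciPy 1.17.1). The fits were tested on simulated data. CPM for correlations used a prior count of 2 on the log2 scale.

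The 10 genes and the lists were chosen with earlier results of these data known. Named from the lists were up to 4 genes per list with an unadjusted p under 0.05 in the diet comparison, by smallest p, then up to 2 with the highest mean CPM where there were fewer, and the 5 genes most correlated with Hamp and with Tfrc. Marker genes were named where their level touched one of the 10 genes. The labels do not tell whether mice of a group came from separate litters, so p-values measure the spread between these mice. Relative counting error is larger at low counts, and its part in the spread between mice was not tested.

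Lists of markers of the other liver cell types were also read from the diet comparison, with 0 genes called by edgeR. Unadjusted p-values under 0.05 occurred for 0 of 8 hepatocyte, 2 of 6 Kupffer cell, 3 of 6 sinusoidal endothelial, 1 of 6 stellate cell, 3 of 5 cholangiocyte, 0 of 7 erythroid, 0 of 2 lymphocyte and 2 of 3 monocyte and neutrophil markers tested, against 15.8% of all genes. Their summed CPM in VDD-F1 and VDS-F1 mice was 292 to 496 and 276 to 384 for stellate cells, 23.9 to 115 and 27.6 to 51.0 for cholangiocytes, 0.603 to 8.98 and 0.888 to 3.48 for lymphocytes and 3.16 to 16.5 and 0.825 to 6.01 for monocytes and neutrophils. VDD2 had the highest sum in these 4 lists, and without it the VDD-F1 sums ended at 376, 71.7, 3.42 and 12.5 CPM. DESeq2 called Ccr2, a monocyte marker, among them, against 4.05% of all genes.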

Additional observations from a re-analysis of the deposited data

Results flagged for a closer look

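Trf was at 75.4 CPM in VDS1, against 187 to 211 CPM in the other 5 VDS-F1 mice, a gap larger than Dixon's 95% limit for 6 samples. Hfe was at 34.9 CPM in VDS5, against 38.6 to 40.3 CPM in the other 5 VDS-F1 mice, also past that limit. These were the 2 found in 22 groups of 6 mice examined, and chance alone marks about 1 in 20 groups. The diet difference of Saa1 differed between the 2 sets of mice (liver weight recorded or not) by 3.30 on the log2 scale, and that of Saa2 by 3.22 (edgeR interaction, adjusted p = 0.00151 each), where Saa1 was at 225 and 279 CPM in VDS1 and VDS2 and at 12.2 to 51.8 CPM in the other 10 mice.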

How the results depend on the processing

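The diet comparison depended on the test and on which mice entered it, and the causes were not tested. Against 5 genes by edgeR on all mice, 504 were called by DESeq2, 590 by voom with sample quality weights, 2 by a robust fit, 20 by the newer edgeR form, 85 with no filter on low counts, 28 with the set of mice as covariate, 618 by DESeq2 with that covariate, 1358 in the 7 mice with a recorded liver weight and 0 in the other 5. Of the 10 iron genes DESeq2 called 1, voom 1, DESeq2 with the set as covariate 3 and the fit on the 7 mice 5, and 2 had an unadjusted p-value under 0.05 in the 5 mice. The pathway genes called were 1, 6, 4 and 14 under these 4 alternatives (DESeq2, voom, DESeq2 with the covariate, the 7 mice), and the marker genes 1, 4, 3 and 12. Those 4 fits called 4.05%, 4.74%, 4.96% and 11% of all genes, and 81 pathway genes were tested on all 12 mice. Leaving out 1 mouse at a time gave 0 to 420 genes, with 420 without VDD1, 142 without VDD3, 12 without VDS2, 8 without VDD2, 1 without VDS6 and 0 without VDD4, VDD5, VDD6, VDS3, VDS4 or VDS5. It gave 0 to 1 of the 10 genes, 3 to 5 at unadjusted p (12.4% to 18.9% of all genes), 0 to 3 pathway genes and 0 to 1 marker genes.

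Between the sets, DESeq2 called 581 genes and 2 of the 10, voom 348 genes and 1 of the 10, and leaving out both VDD2 and VDS6 gave 507 genes and 1 of the 10. Single mice left out gave 143 to 498 genes (498 without VDD2, and 143 to 196 without VDD4, VDD5, VDD6, VDS1, VDS2, VDS3 or VDS4) and 0 to 1 of the 10. For the interaction, DESeq2 called 138 genes, voom 62 and the fit without both VDD2 and VDS6 486, while single mice left out gave 3 to 332 genes (332 without VDD2, 25 without VDS6, 17 without VDD1, 3 to 7 without VDD3, VDD4, VDD5, VDS1 or VDS3) and 0 to 1 of the 10.

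Directions turned mainly where the log2-fold change was near 0. For diet, Fth1 had 0.018 with upper-quartile scaling, 0.029 with the set as covariate, 0.026 by DESeq2 with that covariate, 0.047 without both VDD2 and VDS6, 0.26 in the 5 mice and -0.081 to 0.033 with single mice left out. Hfe had -0.12 in the 5 mice, Hamp2 0.28 with counts that ignore the strand, and Bmp6 -0.072 to 0.16 with single mice left out. For the interaction, Hamp had 0.075 without both mice and -1.29 to 0.026 with single mice left out, Slc40a1 -0.0038 by DESeq2 and -0.17 to 0.17, Tfr2 -0.24 to 0.028, Ftl1 -0.28 to 0.083 and Bmp6 -0.68 to 0.18. Slc40a1, Ftl1, Trf and Hamp were higher and Tfr2 and Tfrc lower in VDD-F1 under every alternative of the diet comparison. Of the alternatives for single genes, 245 of the diet comparison, 145 of the sets and 137 of the interaction kept direction and side of the threshold, and 11, 5 and 1 newly passed it. In the relations of Hamp, r moved to 0.20 for Bmp6, 0.29 for Tfrc and -0.14 for Saa1 without VDS1 and VDS2, and to 0.41 for Tfrc on deviations from the diet means. On deviations from the diet and set means r was -0.077 for Hamp2, 0.13 for Bmp6, 0.84 for Id1, 0.22 for Smad7, -0.019 for Tfrc and 0.030 for Saa1, given without a test.

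Mice with the same number are different animals. Deviations of same-numbered mice had r of -0.076 to 0.10, 0 mice correlated best with their own number, and the numbers do not pair the samples. A replicate block gave 19 genes, 0 of the 10 called and 6 at unadjusted p, against 14.4% of all genes. Bmp6 had the lowest mean level of the 10 genes, with 65 to 165 counts, and what limits its precision was not tested.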
